A study of Mus musculus with 6 samples.

Results

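The levels of 10 regulators of mitochondrial gene expression were followed in the quadriceps of 10-day-old mouse pups: the coactivator genes Ppargc1a and Ppargc1b, the estrogen-related receptor genes Esrra, Esrrb and Esrrg, the muscle regulator genes Perm1 and Cited4, and the transcription factor genes Ppara, Nrf1 and Tfam. They are 10 of the 54532 genes in the count table, found by matching Ensembl identifiers to GENCODE symbols, and all 10 passed the filter on low counts. They were chosen by their known function, with the fold changes and adjusted p-values of the same comparison already in view, so the members' values are given as a description, without p-values. Where a member is said to pass the threshold or not, this describes the fit and is not a test of that member. RNA was sequenced from 3 Myf5Cre-Pcyt2 libraries (genotype Myf5Cre-Pcyt2 flox/flox) and 3 control libraries (genotype Pcyt2 flox/flox), all from pups fed chow. Both groups carry the floxed Pcyt2 alleles. Cre is driven from Myf5, a myogenic factor gene active in muscle precursors and also in precursors of brown fat, and the labels do not say that the controls carry Cre, so loss of Pcyt2 and the Cre allele cannot be told apart. The labels do not say whether the libraries came from separate litters, so the p-values below measure only the spread between these samples.

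PGC-1 alpha and PGC-1 beta, the products of Ppargc1a and Ppargc1b, bind no DNA themselves. They act through nuclear receptors, above all the estrogen-related receptors (ERRs) and PPAR alpha, to raise transcription of genes for respiration and fatty acid oxidation. In muscle this network sets oxidative capacity and responds to exercise, and it reaches the mitochondrial genome through NRF1 and TFAM.

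Library totals lay between 17775898 and 20446920 counts, and 20921 to 23122 genes had at least 1 count. Pcyt2, the targeted gene, averaged 13.9 ± 1.23 CPM in Myf5Cre-Pcyt2 muscle and 16.9 ± 1.52 CPM in control muscle (SD, n = 3 each; CPM is the count per 1000000 library counts after TMM scaling, which adjusts library sizes for composition). Its log2 fold change was -0.28 (SE 0.11, edgeR quasi-likelihood test, adjusted p = 0.0944), and counts summed over the gene cannot separate deleted from undeleted transcript. The muscle identity of the tissue was clear from its markers. The 8 skeletal muscle markers, among them Acta1 and Ckm, summed to 107122, 82048 and 94996 CPM in Myf5Cre-Pcyt2 muscle, against 137384, 182482 and 129791 CPM in control muscle. The groups did not overlap in this sum, which is carried by abundant contractile genes. Of the 8 markers 2 fell, Ckm (-0.94, SE 0.20, adjusted p = 0.0123) and Tnnt3 (-0.65, SE 0.18, adjusted p = 0.0337), and 1 rose, the myogenic factor gene Myod1 (0.27, SE 0.08, adjusted p = 0.0462), while Acta1 did not pass (-0.60, SE 0.21, adjusted p = 0.0699). The part of this difference in the results below was not tested, and in bulk tissue fewer cells of a type and less RNA per cell cannot be told apart. The 4 Schwann cell markers summed to 399.5 to 561 CPM in Myf5Cre-Pcyt2 muscle and 270 to 328 CPM in control muscle, and 3 of the 4 rose. The 4 fibroblast markers summed to 6405 to 7394 CPM in Myf5Cre-Pcyt2 muscle and 4318 to 6346 CPM in control muscle, and 1 of them, Pdgfra, rose (0.54, SE 0.08, adjusted p = 0.00323). The 4 macrophage markers summed to 121 to 138 CPM in Myf5Cre-Pcyt2 muscle and 97.8 to 120.3 CPM in control muscle, and the smallest adjusted p among them was 0.0718 (Mrc1, 0.29, SE 0.10). The 6 cardiomyocyte markers, with Nppb and Nkx2-5 at 0 in every library, summed to 50.0 to 53.9 CPM in Myf5Cre-Pcyt2 muscle and 23.4 to 43.4 CPM in control muscle, and Tnnt2, also a gene of immature skeletal muscle, rose (0.79, SE 0.20, adjusted p = 0.0217). None of these 4 sums overlapped between the groups. The 5 endothelial markers did overlap in their sum, at 671 to 763 CPM in Myf5Cre-Pcyt2 muscle and 634 to 785 CPM in control muscle. Of these 5, 0 passed the threshold. The part of these cell types in the results was not tested.

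Of the 10 regulators, 5 were lower in Myf5Cre-Pcyt2 muscle at an adjusted p under 0.05, and 0 were higher, with edgeR as with DESeq2 on the same libraries. In the same fit 18.6% of all 14715 tested genes passed, 9.59% lower and 9.02% higher, and nothing is read from the members' count because it comes from the comparison in which they were proposed. Cited4 and Perm1 differed most, followed by Ppara, Esrrg and Esrra. The coactivator genes Ppargc1a and Ppargc1b had log2 fold changes of -0.02 and 0.02, with overlapping groups. The 10 members had a median log2 fold change of -0.25, against -0.002 over all genes. The group ranges did not overlap for 4 members (Cited4, Perm1, Esrra and Esrrg), all lower, where 39% of all tested genes did not overlap, 19.2% lower and 19.9% higher.

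**Figure D1:**
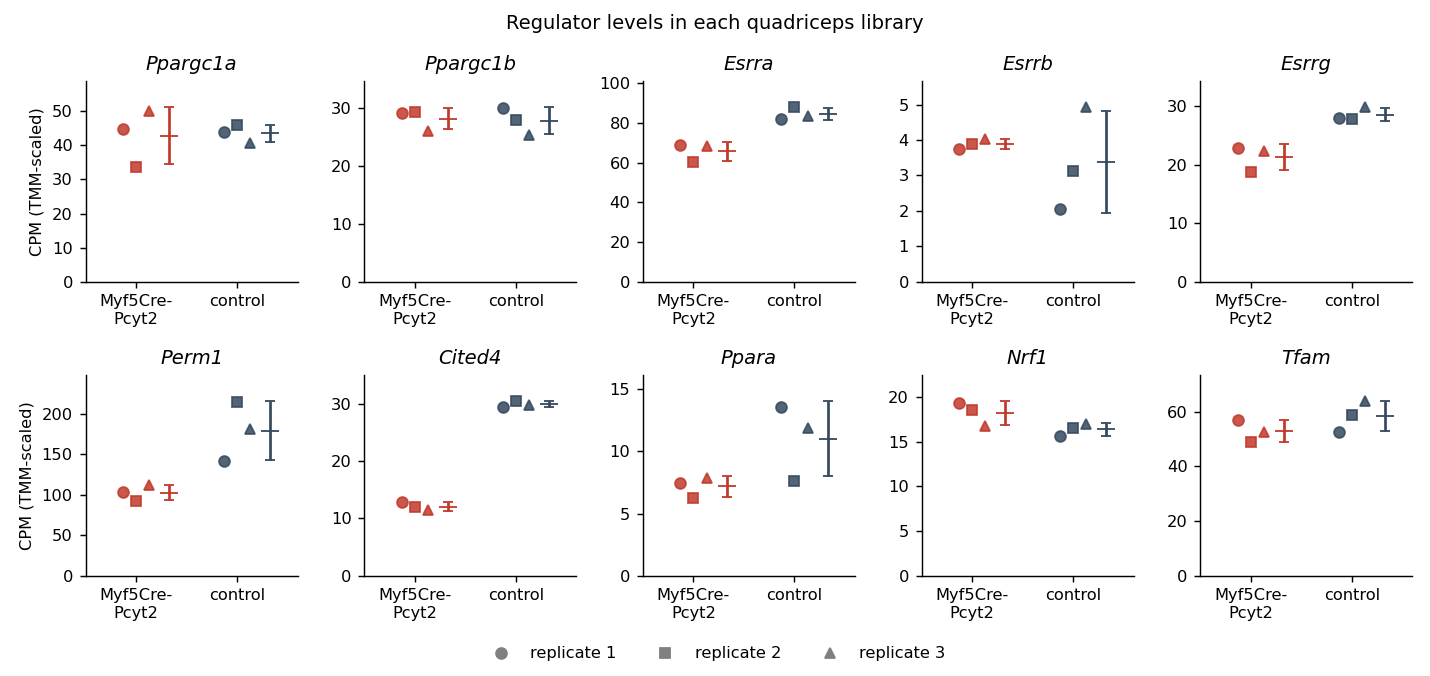
Level of each regulator in CPM (TMM-scaled, axis from 0) in the 3 Myf5Cre-Pcyt2 and 3 control libraries, with marker shapes for replicate number and bars for mean ± SD. Cited4 sits between 11.4 and 12.9 CPM in Myf5Cre-Pcyt2 muscle and between 29.6 and 30.6 CPM in control muscle, while the ranges of Ppargc1a and Ppargc1b overlap.

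Promoter sequence bears on how the ERRs and NRF1 reach their genes, so the members' proximal promoters are shown where a site for a factor of the network was present, with those of Cited4 and Esrra, which were lower and held no such site. RefSeq (GRCm38.p6) gave 14 promoter windows for 9 of the 10 members, each taken as the 250 bases before a RefSeq transcription start. A set of 6 motifs was searched on both strands: the ERR half-site AAGGTCA, its extended form TNAAGGTCA, which contains the half-site, the NRF1 site (GCGC, any base, then TGCGC), the ETS site CCGGAAG bound by GABP, the cyclic AMP response element half-site TGACGT bound by CREB, and the TATA box TATAAA. Capitals mark the match, read 5′ to 3′ on the gene's strand. The Perm1 and Esrra windows stop where the GENCODE gene begins, whereas the Ppara and Tfam stretches lie inside the GENCODE gene.
Perm1, ERR half-site on the opposite strand, chr4:156215677-156215867, plus strand: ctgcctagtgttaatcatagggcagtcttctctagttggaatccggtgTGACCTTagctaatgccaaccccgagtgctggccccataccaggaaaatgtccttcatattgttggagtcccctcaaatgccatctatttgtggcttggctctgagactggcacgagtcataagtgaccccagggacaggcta
Cited4, TATA box, chr4:120666313-120666562, plus strand: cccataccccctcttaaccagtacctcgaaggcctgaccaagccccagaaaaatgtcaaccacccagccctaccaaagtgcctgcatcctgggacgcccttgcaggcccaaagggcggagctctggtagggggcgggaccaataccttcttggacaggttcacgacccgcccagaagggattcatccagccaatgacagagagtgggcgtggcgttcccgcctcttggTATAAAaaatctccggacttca
Esrra, no motif of the 6, chr19:6921814-6922058, minus strand: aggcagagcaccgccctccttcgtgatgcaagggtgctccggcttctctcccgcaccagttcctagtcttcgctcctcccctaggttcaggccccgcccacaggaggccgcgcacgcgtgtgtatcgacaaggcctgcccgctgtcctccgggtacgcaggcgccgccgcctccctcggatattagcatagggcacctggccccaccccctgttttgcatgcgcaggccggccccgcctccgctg
Ppargc1a, CREB half-site on the opposite strand, chr5:51567760-51567785, minus strand: gtgccctcccACGTCActgagctcca
Ppara, NRF1 site, chr15:85735735-85735764, plus strand: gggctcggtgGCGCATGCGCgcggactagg
Tfam, ETS site, chr10:71238075-71238101, minus strand: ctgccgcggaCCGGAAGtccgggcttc

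Of the 9 members with a window, Perm1 alone held the ERR half-site, which was present in 4.08% of all 32851 promoter windows. A member is counted if any of its windows matched, while the percentages are shares of single windows. None held the extended site (1.14% of windows). Ppara held the NRF1 site (3.74%), Tfam the ETS site (6.91%) and Ppargc1a the CREB half-site (6.47%). The letters of the TATA box (12.4%, on either strand) were on the gene's strand in Cited4 alone. In windows of Esrrg and Nrf1 they were on the opposite strand. The Ppara, Tfam, Esrrg and Nrf1 matches precede the RefSeq start used but lie inside the GENCODE gene. The Perm1 half-site began 202 bases before the RefSeq start, and the Cited4 TATA box 22 bases before it. A match describes the letters only, and its absence from 250 bases says nothing of sites elsewhere.

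Ppargc1a (ENSMUSG00000029167, GRCm38 chromosome 5, 51454250 to 51567726) encodes PGC-1 alpha, the exercise- and cold-induced coactivator. Its level was 44.9, 33.8 and 50.0 CPM in the 3 Myf5Cre-Pcyt2 libraries, against 44.0, 45.8 and 40.8 CPM in the control libraries. Myf5Cre-Pcyt2 replicate 2 was the lowest and replicate 3 of the same group the highest of the 6, so the control values lay inside the Myf5Cre-Pcyt2 range. The log2 fold change was -0.02 (SE 0.13), and its sign was not stable: it was 0.12 on leaving out Myf5Cre-Pcyt2 replicate 2, 0.02 on leaving out control replicate 2, and -0.15 on leaving out Myf5Cre-Pcyt2 replicate 3. Scaling by library size alone, which moved the median of all genes by 0.21, gave 0.19. Ppargc1a counts do not separate its isoforms, which start from different promoters.

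Ppargc1b (ENSMUSG00000033871, chromosome 18, 61298136 to 61400431) encodes PGC-1 beta, the paralog that maintains basal mitochondrial gene expression. It had 29.1, 29.2 and 26.0 CPM in Myf5Cre-Pcyt2 muscle and 30.0, 28.0 and 25.3 CPM in control muscle. The 2 ranges overlapped almost entirely, with a log2 fold change of 0.02 (SE 0.09) that was -0.01 on leaving out Myf5Cre-Pcyt2 replicate 1 or 2, -0.05 on leaving out control replicate 3 and 0.23 with library size alone. Per kilobase of exon, the ratio of Ppargc1a to Ppargc1b was 0.933 ± 0.233 in Myf5Cre-Pcyt2 muscle and 0.952 ± 0.0548 in control muscle (SD, n = 3 each), so the coactivator transcripts were present at near parity in both groups. The Myf5Cre-Pcyt2 ratios were more scattered, between 0.699 and 1.17. Pprc1, the third gene of the coactivator family, did not pass the test (0.20, SE 0.10, adjusted p = 0.177).

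Esrra (ENSMUSG00000024955, chromosome 19, 6910977 to 6921813) encodes ERR alpha, the receptor through which PGC-1 alpha reaches most respiratory genes. Its level was 68.7, 60.4 and 68.4 CPM in Myf5Cre-Pcyt2 muscle, against 82.3, 88.0 and 83.6 CPM in control muscle. Every Myf5Cre-Pcyt2 library lay below every control library, and the mean was 77.8% of the control mean (log2 fold change -0.36, SE 0.08). Esrra overlaps the 3′ end of Trmt112 on the opposite strand. Trmt112 had 593 counts over all 6 libraries, and no source used here gives the strand setting of the counting, so reads from the shared bases cannot be told apart.

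Esrrg (ENSMUSG00000026610, chromosome 1, 187608791 to 188214885) encodes ERR gamma, which is abundant in oxidative tissues. It had 22.7, 18.7 and 22.3 CPM in Myf5Cre-Pcyt2 muscle and 27.9, 27.8 and 29.8 CPM in control muscle. The groups again did not overlap, at 74.5% of the control mean (log2 fold change -0.42, SE 0.10). The ratio of Esrra to Esrrg per kilobase of exon was 4.40 ± 0.157 in Myf5Cre-Pcyt2 muscle and 4.21 ± 0.251 in control muscle, and the groups overlapped in this ratio. With library size alone the values were -0.15 for Esrra and -0.22 for Esrrg. Neither receptor was past the threshold on that scale or on leaving out Myf5Cre-Pcyt2 replicate 2 (-0.30 and -0.34), and Esrra was also not past it on leaving out control replicate 2 (-0.33).

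Esrrb (ENSMUSG00000021255, chromosome 12, 86361117 to 86521628) encodes ERR beta, known from pluripotent cells and the inner ear. It was the scarcest regulator, with 3.74, 3.89 and 4.02 CPM in Myf5Cre-Pcyt2 muscle and 2.06, 3.13 and 4.92 CPM in control muscle. The control libraries spread more widely than the difference between the groups (log2 fold change 0.21, SE 0.27), and the value was -0.05 without control replicate 1 and 0.58 without control replicate 3.

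Ppara (ENSMUSG00000022383, chromosome 15, 85734983 to 85802819) encodes PPAR alpha, the fatty-acid-sensing receptor that drives genes of fatty acid oxidation. It had 7.47, 6.24 and 7.85 CPM in Myf5Cre-Pcyt2 muscle, against 13.6, 7.66 and 11.9 CPM in control muscle. Control replicate 2 lay within the Myf5Cre-Pcyt2 range, so the groups overlapped (log2 fold change -0.62, SE 0.20). Ppara is also high in brown fat, and the order of the control libraries, replicate 1 above 3 above 2, was also their order for the adipocyte transcripts Ucp1 and Cidea and for the white adipocyte sum. Ucp1, the uncoupling protein of brown fat, had 8.22, 7.20 and 7.11 CPM in Myf5Cre-Pcyt2 muscle, against 75.5, 1.80 and 30.9 CPM in control muscle. Cidea, another brown fat transcript, had 7.21, 8.47 and 7.30 CPM in Myf5Cre-Pcyt2 muscle and 43.9, 2.61 and 18.4 CPM in control muscle. Of the other brown adipocyte markers, Cox8b had 317, 287 and 281 CPM in Myf5Cre-Pcyt2 muscle. It had 400, 325 and 376 CPM in the control libraries, the same order among the controls. Prdm16 had 8.17, 9.04 and 9.29 CPM in Myf5Cre-Pcyt2 muscle and 8.95, 7.66 and 7.07 CPM in control muscle, a different order. Elovl3 had at most 2 counts in any library. The 6 white adipocyte markers summed to 75.2, 101 and 112 CPM in Myf5Cre-Pcyt2 muscle and 351, 38.2 and 105 CPM in control muscle. The 5 brown adipocyte markers, of which Cox8b is abundant in muscle itself, summed to 305 to 341 CPM in Myf5Cre-Pcyt2 muscle and 337 to 528 CPM in control muscle, with none of the 5 at 0 in every library. Among the Myf5Cre-Pcyt2 libraries, Ppara ran replicate 3 above 1 above 2, an order not shared by Ucp1, Cidea, Cox8b or the white adipocyte sum. The part of adipose tissue in the Ppara difference was not tested. Ppara was past the threshold in 6 of 14 alternative analyses, and not with library size alone (-0.43), a covariate for sex or limma-voom. It was also not past it without any 1 of Myf5Cre-Pcyt2 replicates 1, 2 and 3 (-0.65, -0.53 and -0.69) or control replicates 1 and 3 (-0.44 and -0.57), and the log2 fold change was -0.82 without control replicate 2.

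**Figure D2:**
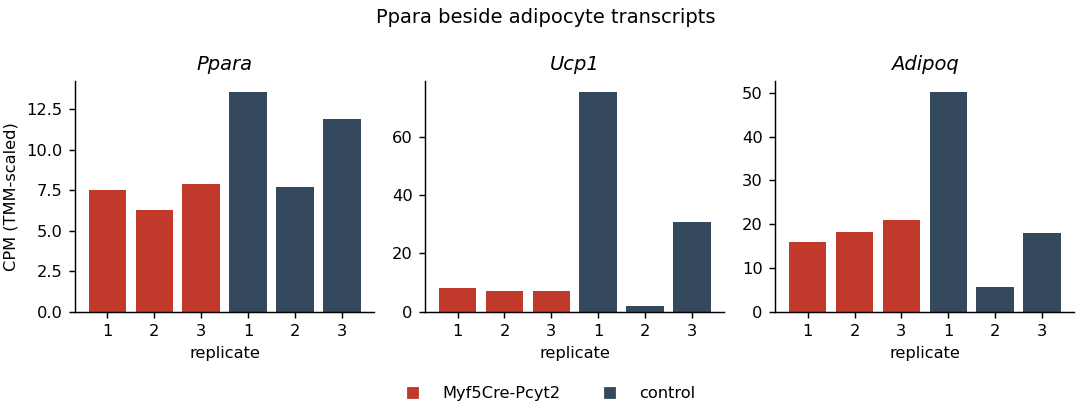
Ppara, Ucp1 (brown adipocyte) and Adipoq (adipocyte) in CPM, linear axes from 0, 1 bar per library. Control replicate 1 is the highest library for all 3 genes and control replicate 2 the lowest of the control libraries, whereas Myf5Cre-Pcyt2 libraries stay within 6.24 to 7.85 CPM for Ppara and 7.11 to 8.22 CPM for Ucp1.

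Perm1 (ENSMUSG00000078486, chromosome 4, 156215868 to 156221307) encodes a striated-muscle protein that is induced by PGC-1 and ERRs and in turn raises ERR target genes. Its level was 104, 92.2 and 112 CPM in Myf5Cre-Pcyt2 muscle, against 141, 214 and 181 CPM in control muscle. The highest Myf5Cre-Pcyt2 library stayed below the lowest control library, at 57.3% of the control mean (log2 fold change -0.80, SE 0.14). The control libraries differed among themselves by a coefficient of variation of 20.5%, against 9.52% in Myf5Cre-Pcyt2 muscle. Over the 14 alternatives the log2 fold change lay between -0.95 and -0.58. Per kilobase of exon, the ratio of Perm1 to Ppargc1a was 3.91, 4.62 and 3.77 in Myf5Cre-Pcyt2 muscle, against 5.42, 7.91 and 7.52 in control muscle, with no overlap. This is the member whose promoter window carried the ERR half-site, and a link between that site and its level was not tested.

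Cited4 (ENSMUSG00000070803, chromosome 4, 120666572 to 120667820) encodes a transcriptional coactivator that binds CBP and p300 and, in mouse heart, is induced by exercise. It had 241, 275 and 247 counts in Myf5Cre-Pcyt2 muscle and 559, 527 and 516 counts in control muscle. Scaled, this was 12.9, 12.0 and 11.4 CPM in Myf5Cre-Pcyt2 muscle, against 29.6, 30.6 and 29.9 CPM in control muscle. The distance between the groups was many times the spread within either, with coefficients of variation of 6.05% in Myf5Cre-Pcyt2 muscle and 1.67% in control muscle. Its level was 40.3% of the control mean, with a log2 fold change of -1.31 (SE 0.09) that lay between -1.36 and -1.10 over the 14 alternatives. Its family members Cited1 and Cited2 did not pass the test, at 0.69 (SE 0.25, adjusted p = 0.0785) and -0.08 (SE 0.10, adjusted p = 0.565).

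Nrf1 (ENSMUSG00000058440, chromosome 6, 30047988 to 30153458) encodes nuclear respiratory factor 1, which binds promoters of respiratory chain genes and of Tfam. It had 19.4, 18.5 and 16.7 CPM in Myf5Cre-Pcyt2 muscle and 15.6, 16.6 and 17.0 CPM in control muscle. The ranges overlapped through a single library, Myf5Cre-Pcyt2 replicate 3, and the log2 fold change was 0.15 (SE 0.10). With library size alone it was 0.36, past the threshold. Tfam (ENSMUSG00000003923, chromosome 10, 71225464 to 71238280) encodes the protein that packages mitochondrial DNA and starts its transcription. It had 57.1, 48.9 and 52.6 CPM in Myf5Cre-Pcyt2 muscle and 52.7, 58.6 and 63.8 CPM in control muscle. The groups overlapped, with a log2 fold change of -0.14 (SE 0.10) that was 0.06 with library size alone.

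**Figure D3:**
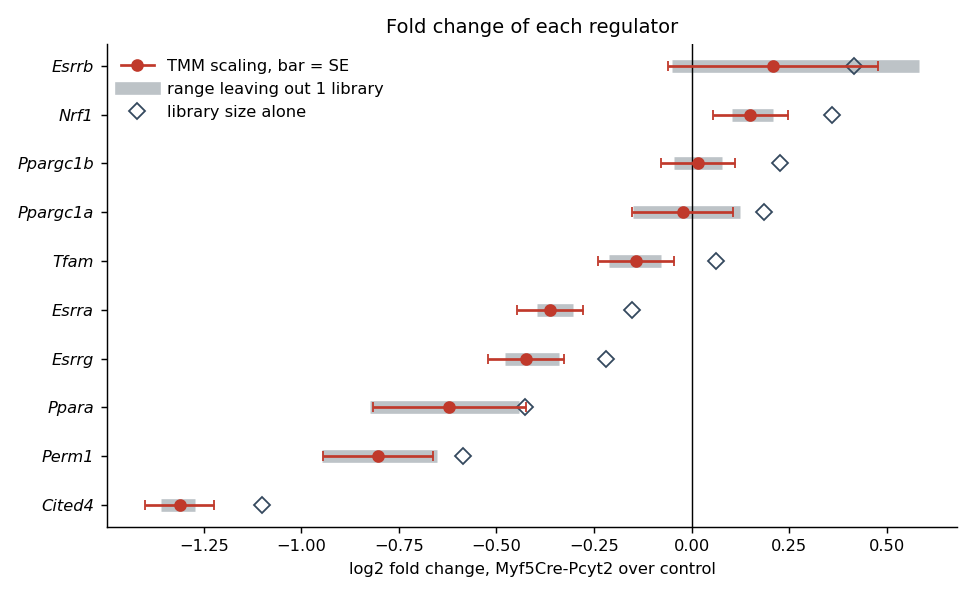
Log2 fold change of each regulator, Myf5Cre-Pcyt2 over control (linear axis, points with SE bars), with grey bars for the range on leaving out each library in turn and diamonds for scaling by library size alone. Cited4 (-1.31) and Perm1 (-0.80) lie farthest from 0, and scaling by library size alone shifts every gene towards higher values, taking Tfam and Ppargc1a above 0.

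Compared per kilobase of exon, Perm1 was the most abundant regulator in both groups, with 26.3 ± 2.50 CPM per kilobase in Myf5Cre-Pcyt2 muscle and 45.9 ± 9.39 in control muscle (SD, n = 3 each). In Myf5Cre-Pcyt2 muscle the order then ran Esrra (15.0), Tfam (11.9), Cited4 (9.68), Ppargc1b (7.04), Ppargc1a (6.50), Esrrg (3.42), Ppara (1.87), Nrf1 (1.77) and Esrrb (0.642). In control muscle Cited4 (24.0) stood second, followed by Esrra (19.3), Tfam (13.2), Ppargc1b (6.95), Ppargc1a (6.61), Esrrg (4.59), Ppara (2.87), Nrf1 (1.59) and Esrrb (0.558). Neighbours in these orders were separated in every library except Ppargc1b and Ppargc1a in both groups and Ppara and Nrf1 in Myf5Cre-Pcyt2 muscle. Lengths are of all annotated exons of a gene together, so a gene with many annotated isoforms has an understated level.

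**Figure D4:**
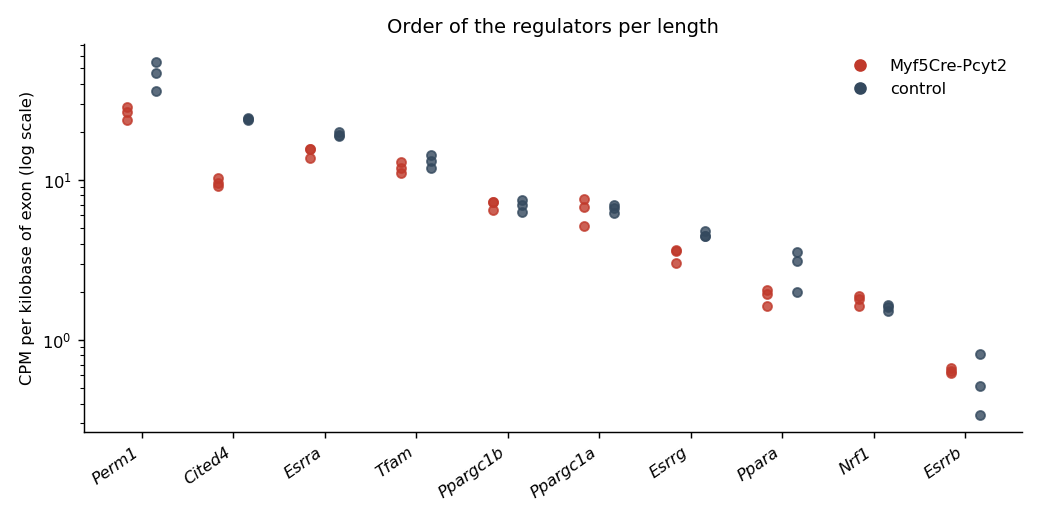
Level of each regulator in CPM per kilobase of annotated exon (log axis), 1 point per library. Cited4 is second among the control libraries at 24.0 and below Esrra and Tfam among the Myf5Cre-Pcyt2 libraries at 9.68, while the order of the other 9 is the same in both groups.

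By the correlation of log2 CPM over the 6 libraries, the genes most like Perm1 among 8583 protein-coding candidates were Ibtk (Pearson r = 0.999), Cmss1 (0.998) and Map3k20 (0.995). Those most like Cited4 were Ubxn6 (0.998), Ap5s1 (0.998) and Gtf3a (0.997), all with smaller differences between the groups than Cited4, at log2 fold changes of -0.36, -0.20 and -0.35. Those most like Esrra were Vamp1 (0.9997), Abhd11 (0.998) and Cdnf (0.997). Those most like Ppargc1a were Slc25a37 (0.992), Acsl1 (0.973) and Noct (0.966), each with a log2 fold change of -0.04. For Esrrg they were Sugt1 (0.994), Nudt19 (0.994) and Fsd1l (0.994), and for Ppara Bri3bp (0.995), Hadh (0.986), an enzyme of fatty acid oxidation, and Sav1 (0.974). Tfam was closest to Vps26a (0.996), Rbx1 (0.992) and Ccdc43 (0.991), and Nrf1 to Rgs16 (0.990), Dnttip1 (0.982) and Bcl7c (0.979). Ppargc1b was closest to Tfcp2 (0.959), Kdm6a (0.953) and Pcbp1 (0.946), and Esrrb to Dennd2c (0.970), Papola (0.967) and Skap2 (0.967). The libraries and their scaling are shared by all genes, and for members that differ between the groups that difference enters the correlation. With 6 libraries in 2 groups, such values describe these libraries only.

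The downstream side of the network was represented by 30 genes known as ERR and PGC-1 targets, outside the 10 regulators. Like the other lists below, this one was chosen with earlier results of these data known, so it is not an independent test. Of these, 17 (56.7%) fell in Myf5Cre-Pcyt2 muscle, 0 rose and 13 did not pass the test, with a median log2 fold change of -0.40 against -0.002 over all genes. Over all tested genes, 9.59% fell and 9.02% rose. DESeq2 also gave 0 rises, and 23 of the 30 (76.7%) had an unadjusted edgeR p under 0.05 in either direction, against 34.5% of all genes. Chchd10, a mitochondrial intermembrane-space protein gene, averaged 285 ± 23.4 CPM in Myf5Cre-Pcyt2 muscle and 491 ± 55.0 CPM in control muscle (log2 fold change -0.78, SE 0.11, edgeR quasi-likelihood test, adjusted p = 0.00312). Mb, which encodes the oxygen store myoglobin, averaged 158 ± 25.0 CPM in Myf5Cre-Pcyt2 muscle and 287 ± 40.9 CPM in control muscle (-0.86, SE 0.14, adjusted p = 0.00417). Ckmt2, the mitochondrial creatine kinase of sarcomeric muscle, averaged 359 ± 55.3 CPM in Myf5Cre-Pcyt2 muscle and 669 ± 129 CPM in control muscle (-0.90, SE 0.16, adjusted p = 0.00571). Fndc5, the PGC-1 alpha-induced precursor of irisin, fell by 0.49 on the log2 scale (SE 0.09, adjusted p = 0.00578), and Cox5a, a cytochrome c oxidase subunit gene, fell by 0.61 (SE 0.12, adjusted p = 0.00865). These 5 passed in all 14 alternatives.

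Among the targets that did not pass the test, Ucp3, the muscle uncoupling protein, was at -0.03 on the log2 scale (SE 0.13, adjusted p = 0.901), and Cpt1b, the muscle carnitine transferase for fatty acid import, had -0.19 (SE 0.12, adjusted p = 0.282). Vegfa, the angiogenic factor induced by PGC-1 alpha through ERR alpha, had -0.17 (SE 0.08, adjusted p = 0.155), and Acadm, the medium-chain acyl-CoA dehydrogenase used as a classic ERR target, had -0.16 (SE 0.10, adjusted p = 0.245). These 4 were chosen after their values were seen. The count of falls was 5 when Myf5Cre-Pcyt2 replicate 2 was left out, 8 when replicate 3 of that group was, 9 when control replicate 2 was, and 7 with library size alone. The slow-fibre markers summed to 1237, 1596 and 1678 CPM in Myf5Cre-Pcyt2 muscle and 758, 709 and 1537 CPM in control muscle, and their part in these values was not tested. The groups did not overlap for 25 of the 30 genes, against 39% of all tested genes.

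**Figure D5:**
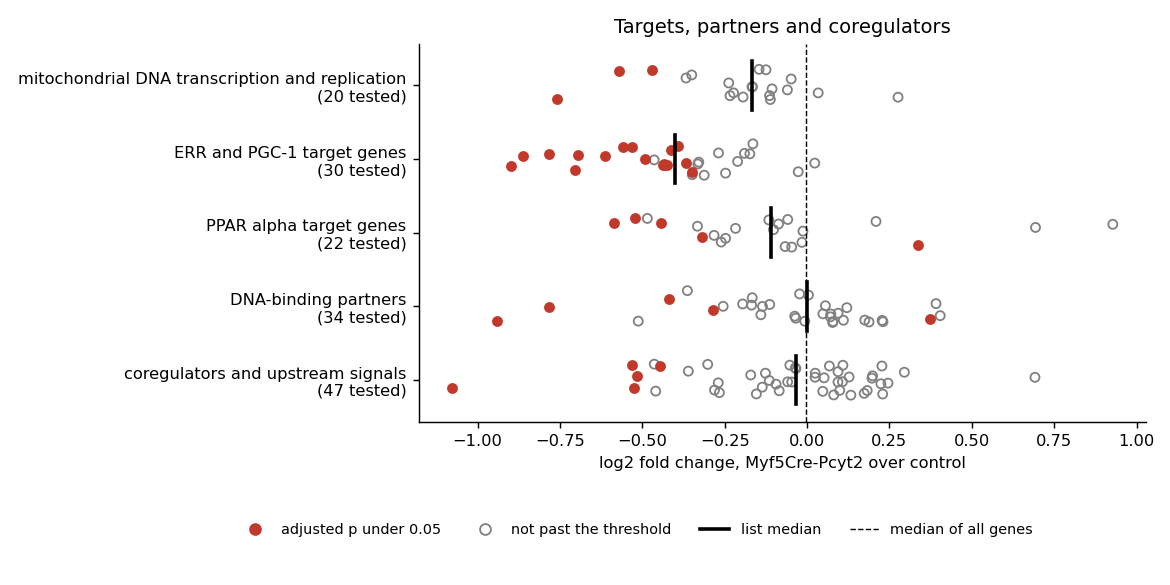
Log2 fold change, Myf5Cre-Pcyt2 over control (linear axis), of the tested genes of 5 lists, with filled points for an adjusted p under 0.05, thick lines for list medians and a dashed line for the median of all genes. The ERR and PGC-1 targets have the lowest median (-0.40) of the 5 lists and the DNA-binding partners are centred near 0 (-0.002).

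The 22 tested targets of PPAR alpha gave 4 falls, 1 rise and 17 genes short of the threshold (median -0.11). So 18.2% of them fell and 4.55% rose, against 9.59% and 9.02% of all genes. Of the 22, 13 (59.1%) had an unadjusted edgeR p under 0.05 in either direction, against 34.5% of all genes. A further 3 of the 25 on the list (Vnn1, Cyp4a14 and Fgf21) were below the filter on low counts. Slc22a5, the carnitine transporter, averaged 10.2 ± 0.850 CPM in Myf5Cre-Pcyt2 muscle and 15.2 ± 1.82 CPM in control muscle (log2 fold change -0.59, SE 0.12, edgeR quasi-likelihood test, adjusted p = 0.0105). Acadvl, the very-long-chain acyl-CoA dehydrogenase, fell by 0.44 (SE 0.10, adjusted p = 0.0124), Eci1, an enoyl-CoA isomerase of mitochondrial oxidation, fell by 0.32 (SE 0.08, adjusted p = 0.0244), and Ehhadh, a peroxisomal oxidation enzyme, fell by 0.52 (SE 0.15, adjusted p = 0.0374). Angptl4, a secreted inhibitor of lipoprotein lipase, rose to 73.5 ± 4.53 CPM in Myf5Cre-Pcyt2 muscle, against 58.2 ± 6.12 CPM in control muscle (0.34, SE 0.10, adjusted p = 0.0349). Pdk4, the pyruvate dehydrogenase kinase that responds to fasting, had -0.49 (SE 0.18, adjusted p = 0.0781), chosen after its value was seen. None of the 5 passed in all 14 alternatives: the highest adjusted p was 0.0533 for Slc22a5, 0.0831 for Acadvl, 0.474 for Eci1, 0.186 for Ehhadh and 0.131 for Angptl4. Leaving out Myf5Cre-Pcyt2 replicate 2 left 0 falls and 0 rises, leaving out replicate 1 of that group left 2 falls, and library size alone gave 1 fall and 4 rises.

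Among 20 genes of mitochondrial DNA transcription and replication, the machinery that NRF1 and TFAM serve, 3 fell, 0 rose and 17 did not pass (median -0.17). DESeq2 also gave 0 rises, and 4 of the 20 (20%) had an unadjusted edgeR p under 0.05, a smaller share than the 34.5% of all genes. The 3 falls were 15.0% of the list, against 9.59% of all genes. Mterf2, a mitochondrial transcription termination factor family gene, averaged 9.24 ± 0.582 CPM in Myf5Cre-Pcyt2 muscle and 15.7 ± 2.23 CPM in control muscle (log2 fold change -0.76, SE 0.13, edgeR quasi-likelihood test, adjusted p = 0.00489), and passed in all 14 alternatives. Top1mt, the mitochondrial topoisomerase, averaged 10.2 ± 0.778 CPM in Myf5Cre-Pcyt2 muscle and 14.1 ± 0.868 CPM in control muscle (-0.47, SE 0.11, adjusted p = 0.0158). Tfb2m, which works with TFAM and the mitochondrial RNA polymerase to start transcription, averaged 5.31 ± 0.236 CPM in Myf5Cre-Pcyt2 muscle and 7.91 ± 0.681 CPM in control muscle (-0.57, SE 0.14, adjusted p = 0.0192). Polrmt, the polymerase itself, had -0.06 (SE 0.10, adjusted p = 0.711) and Polg, the mitochondrial DNA polymerase, -0.17 (SE 0.08, adjusted p = 0.177), both chosen after their values were seen. Top1mt and Tfb2m passed in 10 and 9 of 14 alternatives, with adjusted p up to 0.131 and 0.128. A single fall was left with library size alone, and likewise on leaving out replicate 2 or 3 of Myf5Cre-Pcyt2 muscle or control replicate 2.

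Of 34 other transcription factors that share targets or coactivators with the network, 4 fell, 1 rose and 29 did not pass (median -0.002). The falls were 11.8% of the list and the rise 2.94%, near or below the 9.59% and 9.02% of all genes. Thrb, the thyroid hormone receptor beta gene, averaged 5.95 ± 0.807 CPM in Myf5Cre-Pcyt2 muscle and 11.4 ± 2.05 CPM in control muscle (log2 fold change -0.94, SE 0.17, edgeR quasi-likelihood test, adjusted p = 0.00575) and passed in all 14 alternatives. Its paralog Thra, chosen after its value was seen, had 0.08 (SE 0.08, adjusted p = 0.524). Epas1, the hypoxia-inducible factor 2 alpha gene, fell by 0.42 (SE 0.12, adjusted p = 0.0356), and Rxrg, the muscle-enriched retinoid X receptor partner of PPARs, fell by 0.29 (SE 0.08, adjusted p = 0.0390). Nr4a1, an immediate-early orphan receptor gene whose groups overlapped, was the other that fell (-0.79, SE 0.21, adjusted p = 0.0281), chosen after its value was seen. Foxo3, a factor of atrophy and stress programmes, rose to 74.2 ± 3.71 CPM in Myf5Cre-Pcyt2 muscle, against 57.2 ± 3.57 CPM in control muscle (0.37, SE 0.08, adjusted p = 0.0147). The 3 MEF2 genes and the 3 GABP genes held 0 edgeR calls, with medians of 0.08 and 0.09, and at an unadjusted p under 0.05 they held 0 and 1. Epas1 and Rxrg passed in 7 and 5 of 14 alternatives (adjusted p up to 0.207 and 0.624), and Foxo3 lost the threshold once Myf5Cre-Pcyt2 replicate 3 was left out (0.0618, adjusted p between 0.00303 and 0.0618 over the alternatives). Leaving out Myf5Cre-Pcyt2 replicate 2 or 3 left 1 fall (and 0 rises in the case of replicate 3), leaving out any other library left 2, and library size alone gave 1 fall and 8 rises.

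Coregulators and upstream signals gave 5 falls, 0 rises and 42 genes that did not pass among 47 tested (median -0.03). DESeq2 also gave 0 rises, and 15 of the 47 (31.9%) had an unadjusted edgeR p under 0.05, near the 34.5% of all genes. The 5 falls were 10.6% of the list, near the 9.59% of all genes. The 3 AP-2 genes of the list of 50, Tfap2a, Tfap2b and Tfap2c, were below the filter on low counts. AMP-activated protein kinase, which senses energy charge and phosphorylates PGC-1 alpha, accounted for 3 of the 5 falls: of its 7 subunit genes, a group read out after the values were seen, 3 fell and 4 did not pass. Prkag3, the fast-muscle gamma subunit, had 88.7, 52.0 and 64.7 CPM in Myf5Cre-Pcyt2 muscle, against 116, 178 and 139 CPM in control muscle. Its log2 fold change of -1.08 (SE 0.19, edgeR quasi-likelihood test, adjusted p = 0.00615) passed in all 14 alternatives. Prkaa2 and Prkab2, the catalytic and beta subunits that prevail in muscle, fell by 0.53 each (SE 0.13 and 0.14, adjusted p = 0.0215 and 0.0291), and each passed in 10 of 14 alternatives (adjusted p up to 0.0903 and 0.0964).

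The other 2 falls were in the C/EBP family. Cebpb, which has been found to restrain Cited4 in mouse heart, averaged 24.6 ± 1.19 CPM in Myf5Cre-Pcyt2 muscle and 35.1 ± 3.29 CPM in control muscle (log2 fold change -0.52, SE 0.09, edgeR quasi-likelihood test, adjusted p = 0.00632). Cebpd averaged 15.2 ± 0.124 CPM in Myf5Cre-Pcyt2 muscle and 20.7 ± 2.23 CPM in control muscle (-0.45, SE 0.10, adjusted p = 0.0150). Cebpb was not past the threshold with library size alone (0.0764, range 8.32e-05 to 0.0764), and Cebpd passed in 10 of 14 alternatives (up to 0.143). Sirt1, a deacetylase of PGC-1 alpha, had 0.23 (SE 0.10, adjusted p = 0.144) and Nrip1, a corepressor of ERR target genes, 0.23 (SE 0.18, adjusted p = 0.407), both chosen after their values were seen. The 4 CaMKII genes, the 4 class IIa histone deacetylase genes, the 3 CRTC genes and the 3 p160 coactivator genes held 0 edgeR calls. At an unadjusted p under 0.05, 2 CaMKII genes passed and 0 of the others. Leaving out replicate 2 of either group left 2 falls, and leaving out Myf5Cre-Pcyt2 replicate 3 left 3. Library size alone gave 2 falls and 12 rises, and 3 genes rose on leaving out control replicate 1.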

How the data were processed

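The deposited values are raw counts per Ensembl gene. Per the submitters' processing notes they were made on GRCm38/mm10 with featureCounts (Subread 1.6.2), Bowtie2 2.3.4.1 and Trim Galore 0.5.0, listed there without order. No source used here gives the annotation release, strand setting or multi-mapping rule, so genes with near-identical copies are uncertain. Symbols, positions and exon lengths came from GENCODE M21 (54495 of 54532 identifiers matched).

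Genes were filtered with filterByExpr and scaled with TMM. The 2 groups were compared with edgeR 4.0.16's quasi-likelihood test, two-sided, Benjamini-Hochberg adjusted over 14715 genes, at a threshold of 0.05 (R 4.3.3, limma 3.58.1, DESeq2 1.42.0, Python 3.11.15). A positive log2 fold change means higher in Myf5Cre-Pcyt2 muscle. The procedure was tested on simulated data. Totals of 17775898 to 20446920 counts limit precision for the scarcest genes. Libraries of a group differed by more than counting noise (chi-square per degree of freedom 12.1 to 34.3), so none was a copy. By Xist and Y-linked counts, each group held 2 female pups and 1 male pup (replicate 3).

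The members and lists were chosen with earlier results of these data known. Named list genes are up to 5 per list with the smallest p among calls whose groups did not overlap and whose mean reached 1 CPM. Likeness used the 3 protein-coding genes of at least 10 CPM with the highest correlation. Alternatives were 14: other scalings, tests and filters, a sex covariate, a replicate block, and leaving out each library.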

Additional observations from a re-analysis of the deposited data

How the results depend on the processing

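Over all genes, 1411 were lower and 1328 higher; leaving out 1 library gave 424 to 1448 lower and 422 to 1337 higher. Leaving out 1 library gave ranges of 2 to 4 lower members (5 with all libraries), 5 to 18 lower ERR and PGC-1 targets (17), 0 to 4 lower and 0 to 1 higher PPAR alpha targets (4 and 1), 1 to 3 lower mitochondrial DNA genes (3), 1 to 2 lower and 0 to 1 higher DNA-binding partners (4 and 1), and 2 to 7 lower and 0 to 3 higher coregulators (5 and 0).

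Scaling by library size alone gave 499 lower and 3225 higher genes, so 86.6% of its calls were higher, against 48.5% with TMM. On that scale there were 2 lower members and 1 higher, 7 lower ERR and PGC-1 targets, 1 lower and 4 higher PPAR alpha targets, 1 lower mitochondrial DNA gene, 1 lower and 8 higher DNA-binding partners, and 2 lower and 12 higher coregulators. With no filter on low counts, 3 PPAR alpha targets were higher, and 8 coregulators were lower and 2 higher. With DESeq2, limma-voom, a covariate for sex and a filter of 1 CPM in 3 libraries, 2 PPAR alpha targets were higher in each, and the covariate gave 1 higher coregulator. The TMM factors, which scaling by library size alone leaves out, were 1.03, 1.12 and 1.08 in Myf5Cre-Pcyt2 replicates 1, 2 and 3. In control replicates 1, 2 and 3 they were 0.968, 0.853 and 0.972, so the groups did not overlap in them. What lies behind these factors was not tested, nor was the cause of the moves under the other settings.

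The labels name no pairing. Deviations of same-numbered libraries correlated at -0.111, -0.174 and 0.0182, and those of other pairs at -0.0632 to 0.164. With 3 libraries per group this check cannot exclude a pairing. With the replicate block, 866 genes were lower and 865 higher, with 4 lower members (Esrra was no longer past the threshold), 8 lower ERR and PGC-1 targets, 1 lower PPAR alpha target, 2 lower DNA-binding partners and 3 lower coregulators. Of the single-gene values under the alternatives, 0 calls changed direction and 77 were lost, 63 of list genes and 14 of the members Esrra, Esrrg and Ppara. At these depths Esrrb, with 39 to 89 counts per library, is measured least precisely.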
